A study of Mus musculus with 20 samples.

Results

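The transcripts described here encode the initiation and elongation factors of translation and the proteins that act directly on them. They are the genes whose symbol begins with Eif or Eef followed by a digit, that are not named as pseudogenes and that averaged at least 1 TPM over 20 libraries. TPM is the share of a transcript among all transcripts of a library, corrected for its length. Of 52636 genes in the tables, 75 symbols matched the pattern, 7 of them named as pseudogenes and 6 others below 1 TPM. This left 62 genes, 52 of them Eif and 10 Eef. Their mean levels chose them and are therefore a description. Just above the threshold stood Eef2k at 3.67 TPM and Eif2ak4 at 3.97 TPM, and just below it Eif4ebp3 at 0.801 TPM and Eif3j2 at 0.299 TPM.

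The libraries came from macrophages grown in culture from E14.5 fetal livers of mice and carry 5 animal numbers in the labels, which do not say whether livers were pooled. All 5 animals carried Csf1r-iCre, a Cre recombinase driven by the promoter of the macrophage growth factor receptor gene, and expressed the ribosomal protein L10a fused to EGFP, with no driver of the fusion named in the labels. The 3 animals KO-84, KO-94 as well as KO-179 are labelled HuR fl/fl, a floxed allele of Elavl1, which encodes the RNA-binding protein HuR. The 2 animals WT-280 and WT-281 are the controls, labelled HuR +/+. Plates of each animal spent 18 h in hypoxia (1% O2) or normoxia (20% O2). Each lysate was divided into RNA pulled down with the tagged ribosomes (TRAP, short for translating ribosome affinity purification) and total RNA (input). TPM keep no read numbers, so the depth of each library is unknown.

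Elavl1 was not lower in the animals labelled as knockouts. Its log2 difference from controls was 0.86 ± 1.04 in normoxia input and 0.51 ± 1.04 in hypoxia input (SE, limma adjusted p = 1 and 0.909), and 0.76 ± 1.31 and 0.51 ± 1.31 in normoxia and hypoxia TRAP (adjusted p = 0.961 and 1). These animals are therefore called knockout-labelled. All macrophage markers were detected in every group, and 5 of 9 erythroid and 5 of 8 neutrophil markers were listed at 0 in every library. Animal KO-94 stood apart, and so did the hypoxia input library of WT-280 and the normoxia input library of KO-84, so the value without them is given beside each named difference that their removal moved by over 1.5 times. In bulk RNA, fewer cells of a type and less RNA per cell cannot be told apart.

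Translation of a capped mRNA begins when eIF4E, the scaffold eIF4G and the helicase eIF4A prepare its 5′ end for the small ribosomal subunit, which carries eIF3, eIF1, eIF1A and the initiator tRNA held by eIF2. The guanine nucleotide exchange factor eIF2B recharges eIF2 after each round, and stress kinases that phosphorylate the eIF2 alpha subunit block this step. The 4E-BP proteins compete with eIF4G for eIF4E when the kinase mTOR is inactive. In elongation, eEF1A delivers aminoacyl-tRNA, the eEF1B subunits recharge eEF1A, and eEF2 moves the ribosome along. Many mRNAs for elongation factors and some for eIF3 subunits carry a 5′ terminal oligopyrimidine (TOP) tract, through which mTOR signalling controls their loading on ribosomes. Low oxygen is known to restrain mTOR and to activate an eIF2 kinase.

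The start of the transcript matters for the TOP mRNAs, so the first 30 bases after the annotated start are shown for 5 of the 9 members counted as TOP mRNAs below, for the X- and Y-linked pair of eIF2 subunits and for Eif4g1 and Eif3c. They are RefSeq sequences of GRCm38.p6, read 5′ to 3′, and capitals mark the longest run of C and T in each.
Eef1a1 (chr9:78481695-78481724, minus strand): TTCCCgagggtgggggagaacggtatataa
Eef1b2 (chr1:63176831-63176860, plus strand): gccggaagtagccgaggCCTTgcgtccgag
Eef2 (chr10:81176631-81176660, plus strand): gttgacgtcagcggTCTCTTCCgccgcagc
Eif3f (chr7:108934415-108934444, plus strand): CTCTCTTTCTCggcaagatggcttctccgg
Eif4b (chr15:102073773-102073802, plus strand): cgccgcgccaCCCCCTCgcgctgctttacg
Eif2s3x (chrX:94212622-94212651, minus strand): CTTTTCTCTCCgagcaagatggctgggggt
Eif2s3y (chrY:1010595-1010624, plus strand): aCTTCCTTCTTTCgtgagcaagatggcggg
Eif4g1 (chr16:20672727-20672756, plus strand): gCCCTCTgcgccggtcacgtggggcgctgg
Eif3c (chr7:126566337-126566366, minus strand): ggactcggcagcttagctggttcgtgTCTC
Of the 62 genes, 50 had an entry in the RefSeq table. A run of at least 8 C or T on the transcript strand, anywhere in these 30 bases, was found in 9 of the 50 (18.0%), against 11.6% of all 27025 genes in the table. Of the members counted as TOP mRNAs only Eef2 and Eif3f were among them. Eef1a1, Eef1b2 and Eif4b had no such run, and Eef1d, Eef1g, Eif3e and Eif3h had no entry. The annotated windows of Eif3f and Eif2s3x begin with such a run, whereas the run of Eef2 begins at base 15 and the window of Eef1a1 begins with 5 pyrimidines. An annotated start can differ from the start used in these cells, which was not measured here. The lack of a run in a window, as for Eef1a1, therefore does not show that the mRNA lacks a TOP tract.

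The 10 Eef symbols were uneven in level. By mean TPM, the 6 grouped as elongation factors had a median of 237 and the 4 grouped as elongation regulators one of 42.4. The 52 Eif symbols ranged from 3.97 TPM for Eif2ak4 to 1158 TPM for Eif5a. Eef1a1, which encodes eEF1A, was the most abundant of the 62 at 2715 ± 1297 TPM (mean ± SD, n = 20 libraries). The eEF1B subunit transcripts Eef1g and Eef1b2 followed at 261 ± 72.2 and 252 ± 84 TPM, and the translocase Eef2 at 222 ± 105 TPM. Eef1a1 alone made up 57.2% to 82.6% of the summed Eef TPM of a library. The summed Eef level was 2207 to 6885 TPM and the summed Eif level 4673 to 7868 TPM. Together the 62 genes held 0.688% to 1.46% of all TPM in a library.

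Among the initiation factors, Eif5a (1158 ± 400.0 TPM) and Eif1 (946 ± 233 TPM) stood far above the rest. Eif5a encodes the hypusine-carrying factor that relieves stalled ribosomes, and Eif1 the guardian of start codon selection. Both have processed pseudogenes that can share reads, as has Eif4a1, so their levels are uncertain to that extent. Eif5a ranged from 670.1 to 1875 TPM in TRAP (median 1326) and from 594 to 1657 TPM in input (median 991). Eif1 ranged from 635 to 1529 TPM in TRAP (median 1035) and from 682 to 1127 TPM in input (median 782). The ranges of TRAP and input overlapped for both.

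The 13 transcripts for subunits of eIF3, the scaffold that joins the small subunit to the mRNA, spread from 14.6 TPM for the loosely bound subunit Eif3j1 to 351 ± 66.8 TPM for Eif3k. Eif3k, which encodes a peripheral subunit, varied little, with 253 to 505 TPM in TRAP (median 340.4) and 284 to 425 TPM in input (median 357). Eif3h, another non-core subunit, ranged from 156 to 496 TPM in TRAP (median 213) and from 133 to 353 TPM in input (median 209). Eif3b, a core subunit, had the largest relative spread of all members, with a coefficient of variation of 85.2% over the 20 libraries, and the methyltransferase of eEF2, Eef2kmt, the smallest, at 15.3%.

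The eIF2 pathway was uneven. The beta subunit Eif2s2 averaged 172 ± 52.6 TPM and the alpha subunit Eif2s1 48.8 ± 25.8 TPM. The gamma subunit is encoded by the X-linked Eif2s3x and the Y-linked Eif2s3y, which are so alike that reads can be shared. Eif2s3y was above Eif2s3x in every library, by a ratio of 1.11 to 16.6. Transcripts for the 5 eIF2B subunits averaged 11.6 to 26.2 TPM and those for the 4 eIF2 kinases 3.97 to 17.1 TPM. Eif2ak3, which encodes the endoplasmic reticulum kinase PERK, ranged from 1.88 to 12 TPM in TRAP (median 6.93) and from 2.48 to 11 TPM in input (median 6.74).

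In the cap-binding group, the helicase Eif4a1 averaged 233 ± 124 TPM. It ranged from 122 to 484 TPM in TRAP (median 179.5) and from 31.4 to 475 TPM in input (median 203). The scaffold Eif4g1 averaged 18.7 ± 9.80 TPM and the cap-binding Eif4e 36.9 ± 27.0 TPM. Eif4e2, which encodes a cap-binding protein that does not engage eIF4G in the usual way, ranged from 84.4 to 151 TPM in TRAP (median 103) and from 76.2 to 142 TPM in input (median 112). The inhibitor Eif4ebp1 averaged 267 ± 88.5 TPM and stood above Eif4e in every library, by a ratio of 1.56 to 39.8. Its relative Eif4ebp2 was scarcer, at 9.82 to 30.4 TPM in TRAP (median 15.9) and 8.74 to 26.8 TPM in input (median 21.0). Eef2k, the kinase that inactivates eEF2, was the least abundant member, at 0.315 to 7.48 TPM in TRAP (median 3.60) and 1.00 to 6.77 TPM in input (median 3.60).

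**Figure D1:**
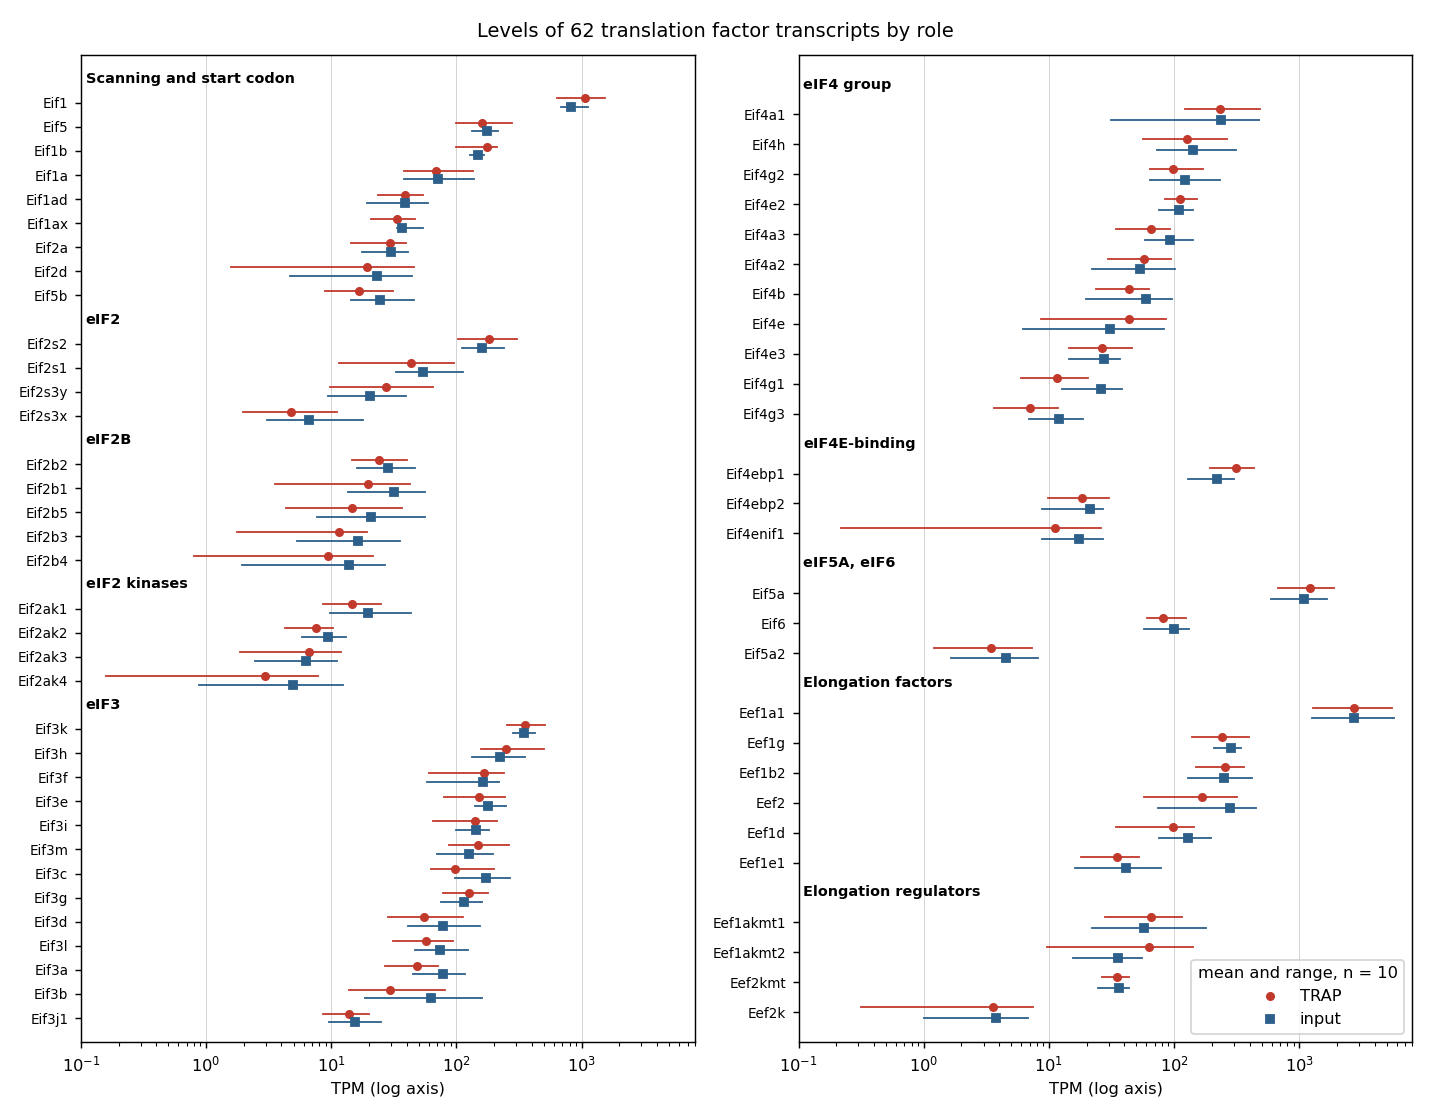
Levels of the 62 transcripts in TPM on a log axis, grouped by role; points are means and lines the range over 10 TRAP libraries (circles) and 10 input libraries (squares). Eef1a1, Eif5a and Eif1 stand at the top well above the others, and the ranges of both fractions overlap for every transcript over the pooled oxygen levels.

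The comparison of TRAP with input asks which of these mRNAs were more or less represented on tagged ribosomes than in the cell's total RNA. In normoxia, 48 of the 62 were lower in TRAP, with a median log2 difference of -0.17, against -0.28 over all 14842 genes tested, of which 29.1% were higher in TRAP. Values were compared as log2(TPM + 1), a scale that understates differences of low genes, and a gene passed at a Benjamini-Hochberg adjusted p under 0.05 over all genes tested. Without regard to which lysate a library came from, 0 of the 62 passed in limma, beside 0.229% of all genes, and 6 had an unadjusted p under 0.05, beside 9.88% of all genes. TRAP and input came from the same lysates. With the lysate as a block, 3 members passed, all lower in TRAP, beside 1.36% of all genes that passed lower. They were Eef2, Eif4g1 and Eif3c. Cell type markers were also lower in normoxia TRAP than in input. Of the macrophage markers 10 of 11 entries were lower (median -0.85), where Itgam has more than 1 entry. Of the fibroblast markers 9 of 10 tested were lower (median -1.59), with summed fibroblast TPM of 23.6 to 188 in TRAP and 174 to 801 in input. In hypoxia 8 of 11 macrophage (median -0.15) and 10 of 10 fibroblast markers (median -1.28) were lower in TRAP. No marker of either list passed in limma without the block. With it, 5 of 10 fibroblast markers (Acta2, Col1a1, Col1a2, Col3a1 and Sparc) and 2 of 11 macrophage markers (Adgre1 and Csf1r) passed lower in normoxia TRAP, and 3 fibroblast and 0 macrophage markers in hypoxia TRAP. Their part in the differences of the members was not tested.

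Eif4g1, the scaffold of the cap-binding complex, had 10.2, 16.1 and 10.8 TPM in normoxia TRAP of KO-84, KO-94, then KO-179, and 10.8 and 8.33 TPM in that of WT-280 and WT-281. The input of the same lysates had 18.3, 38.2 and 24.9 TPM in knockout-labelled animals and 34.3 and 25.1 TPM in the controls. Every normoxia TRAP library was below every normoxia input library, as for 2.45% of all genes. The log2 difference was -1.29 ± 0.39 (SE), with a limma adjusted p of 0.302 without and 0.0301 with the lysate block.

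Eef2 had 169, 276 and 127 TPM in normoxia TRAP of the knockout-labelled animals and 74.2 and 107 TPM in that of the controls. The input had 272, 363 and 303 TPM in knockout-labelled animals and 213 and 264 TPM in the controls. TRAP was lower than input in all 5 animals, although the highest TRAP library, of KO-94, lay above 3 of the 5 input libraries. The log2 difference was -1.09 ± 0.37, with a limma adjusted p of 0.350 without and 0.0125 with the block.

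Eif3c, a core eIF3 subunit, had 109, 68.3 and 80.2 TPM in normoxia TRAP of the knockout-labelled animals and 118 and 109.7 TPM in that of the controls. The input had 259, 98.4 and 204 TPM in knockout-labelled animals and 156 and 221 TPM in the controls. TRAP was lower in each animal, KO-94 was the lowest in both fractions, and its input lay below 3 of the 5 TRAP libraries, so the groups overlapped. The log2 difference was -0.87 ± 0.37, with a limma adjusted p of 0.447 without and 0.0486 with the block. These 3 calls depended on having all 5 animals. Leaving out any 1 animal from the blocked fit left 0 members passing, with differences of -0.97 to -1.18 for Eef2, -1.25 to -1.35 for Eif4g1 and -0.72 to -1.02 for Eif3c.

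Other eIF3 and eIF4 transcripts did not pass in either fit. Eif3b differed by -0.98 ± 0.53 (limma adjusted p = 0.0603 with the block), Eif3a, the largest eIF3 subunit, by -0.75 ± 0.30 (-0.49 without WT-281) and Eif4a3, the helicase of the exon junction complex, by -0.72 ± 0.31. The other direction was led by Eef1akmt2, a lysine methyltransferase of eEF1A, with 58.6, 71.5 and 52.8 TPM in normoxia TRAP of the knockout-labelled animals and 80.6 and 54.1 TPM in that of the controls. Its input had 15.5, 35.0 and 29.9 TPM in knockout-labelled animals and 31.5 and 44.4 TPM in the controls. Every TRAP library was above every input library, as for 0.243% of all genes, and the log2 difference was 1.01 ± 0.45 (limma adjusted p = 0.474). In hypoxia the order was mixed, with TRAP below input in KO-84 and WT-281.

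In hypoxia, 44 of the 62 were lower in TRAP, with a median of -0.15, against -0.10 over all genes, of which 41.2% were higher in TRAP, and 0 passed in limma. The share of all genes that passed was 0.0876%, and 0 members passed with the lysate block either, beside 0.344% of all genes that passed lower. At an unadjusted p under 0.05 there were 2 members, beside 5.2% of all genes. For 0 members did the libraries not overlap, beside 0.128% of all genes higher and 0.667% lower. Eif4g1 had 9.0, 13.4 and 9.91 TPM in hypoxia TRAP of the knockout-labelled animals and 5.96 and 20.5 TPM in that of the controls. The input had 19.4, 36.8 and 25.3 TPM in knockout-labelled animals and 12.7 and 24.9 TPM in the controls. TRAP was again lower in every animal, by -0.93 ± 0.39, but the libraries overlapped. Eef2 differed by -0.54 ± 0.37, and by -0.96 without the hypoxia input library of WT-280. Eif4enif1, which encodes the eIF4E-binding shuttle protein 4E-T, had 5.22, 20.0 and 11.7 TPM in hypoxia TRAP of the knockout-labelled animals and 8.47 and 0.217 TPM in that of the controls. Its input had 14.9, 27.2 and 13.3 TPM in knockout-labelled animals and 17.1 and 24.7 TPM in the controls. TRAP was lower in each animal, most of all in WT-281, and the groups overlapped, with a log2 difference of -1.66 ± 0.57 (limma adjusted p = 0.697). It was -0.79 without WT-281 and -2.53 without WT-280.

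Over both oxygen levels, TRAP was below input in all 10 lysates for 5 members, Eef2, Eif3c, Eif3d, Eif4g1 and Eif4g3, a share of the 62 to be read beside 3.24% of all genes. Eif3d encodes an eIF3 subunit that can itself bind caps, and Eif4g3 a second eIF4G scaffold. TRAP was above input in all 10 for Eif4ebp1 alone, beside 0.761% of all genes. By role, all 5 eIF2B transcripts were lower in TRAP on average in normoxia and hypoxia, with medians of -0.42 and -0.66. All 6 grouped as elongation factors were lower on average in normoxia, with a median of -0.24 and a range of -1.09 to -0.02. Single lysates differed in direction. In normoxia, Eef1a1 was higher in TRAP of the knockout-labelled animals, by 0.36, 0.76 and 0.04. It was lower in TRAP of the controls, at -0.36 and -0.78. Over the 10 lysates, TRAP was below input in 10 for Eef2, 8 for Eef1g and 6 for Eef1e1. TRAP was below input in 5 for Eef1a1, 5 for Eef1b2 and 4 for Eef1d. Over all genes the medians were -0.28 in normoxia and -0.10 in hypoxia, and 29.1% and 41.2% of genes were higher in TRAP. The medians of Eif and Eef symbols were -0.17 and -0.16 in normoxia and -0.16 and -0.13 in hypoxia. The hypoxia change of the TRAP to input difference had a median of 0.02 over the members and 0.16 over all genes, and 0 members passed in limma, as did 0 of 14842 genes (353, or 2.38%, had an unadjusted p under 0.05, with 0 members among them).

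**Figure D2:**
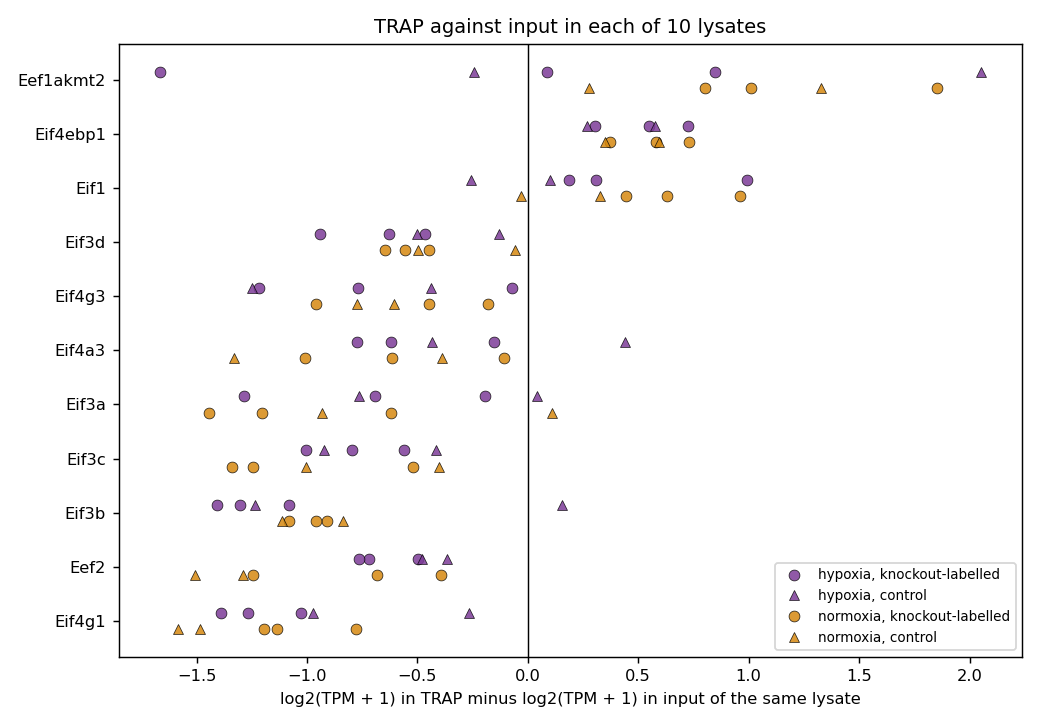
TRAP minus input of the same lysate on the log2(TPM + 1) scale for 11 transcripts; each point is 1 lysate, circles are knockout-labelled and triangles control animals. All 10 points lie left of 0 for Eif4g1, Eef2, Eif3c, Eif3d and Eif4g3 and right of 0 for Eif4ebp1.

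The comparison of hypoxia with normoxia asks how 18 h at 1% O2 altered the levels of these mRNAs. In limma 0 of the 62 passed in either fraction, and 0 of 13901 genes passed in input and 0 of 13522 in TRAP (321 and 339 genes had an unadjusted p under 0.05, or 2.31% and 2.51%). In input 43 members were lower in hypoxia, with a median of -0.15, the same as over all genes, of which 35.1% were higher. In TRAP 40 were lower, with a median of -0.08, against 0.01 over all genes, of which 51.2% were higher. For 0 members did hypoxia and normoxia libraries not overlap, beside 0.036% of all genes higher and 0.266% lower in input and 0.111% higher and 0.0813% lower in TRAP. These fits, and the SE and p-values below unless a block is named, did not pair the libraries of an animal. Few members had one direction in every animal. Over the 5 animals and both fractions, 2 members were lower in hypoxia in all 10 pairs, Eif4a2 and Eif3j1, beside 0.424% of all genes, and 1 member was higher in all 10, Eif4ebp1, beside 0.262%.

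Eif4a2 encodes the second eIF4A helicase of the cap-binding complex. Its hypoxia TRAP libraries had 29.4, 59.4 and 35.4 TPM in KO-84, KO-94, then KO-179 and 42.8 and 48.4 TPM in WT-280 and WT-281. The normoxia TRAP libraries had 61.0, 73.9 and 55.5 TPM in knockout-labelled animals and 94 and 70.1 TPM in the controls. Every animal was lower in hypoxia, and the groups overlapped because of KO-94. The log2 difference was -0.74 ± 0.35 (limma adjusted p = 1.000). In input, hypoxia gave 26.2, 66.0 and 36.0 TPM in knockout-labelled animals and 22.2 and 42.6 TPM in the controls. Normoxia input gave 64.6, 101 and 41.0 TPM in knockout-labelled animals and 63.2 and 66.8 TPM in the controls. Again each animal was lower in hypoxia, least of all KO-179, with a log2 difference of -0.87 ± 0.38 (limma adjusted p = 0.999). With the animal as a block, the limma adjusted p of Eif4a2 was 0.664 in TRAP and 0.515 in input. Its paralogue Eif4a1 was lower in hypoxia in 7 of the 10 pairs and higher in 3.

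Eif3j1 had 11.3, 10.5 and 10.3 TPM in hypoxia TRAP of the knockout-labelled animals and 8.54 and 15.4 TPM in that of the controls. Normoxia TRAP had 17.9, 15.1 and 12.3 TPM in knockout-labelled animals and 17.9 and 19.9 TPM in the controls. Each animal was lower in hypoxia, and the groups overlapped. Hypoxia input had 9.65, 10.7 and 13.2 TPM in knockout-labelled animals and 12.9 and 15.2 TPM in the controls. Normoxia input had 25.0, 14.1 and 15.8 TPM in knockout-labelled animals and 18.3 and 18.8 TPM in the controls. Again each animal was lower in hypoxia and the groups overlapped. The log2 differences were -0.56 ± 0.41 in TRAP and -0.50 ± 0.36 in input, and neither passed in limma. Reads of Eif3j1 and the near-identical Eif3j2 may be shared.

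Eif4ebp1 was the member with the opposite course. Hypoxia TRAP had 323, 247 and 437 TPM in knockout-labelled animals and 418 and 297 TPM in the controls. Normoxia TRAP had 199.95, 194 and 429 TPM in knockout-labelled animals and 325 and 268 TPM in the controls. Each animal was higher in hypoxia, KO-179 by the smallest margin, and the groups overlapped. In input, hypoxia gave 261, 149 and 299 TPM in knockout-labelled animals and 280.3 and 246 TPM in the controls. Normoxia input gave 154, 129.6 and 258 TPM in knockout-labelled animals and 215 and 210.1 TPM in the controls. Each animal was again higher in hypoxia, with overlapping groups. The log2 differences were 0.30 ± 0.33 in TRAP and 0.35 ± 0.31 in input (limma adjusted p = 1.000 and 0.999). The eIF2 kinases, which act by phosphorylation, had median differences of -0.02 in TRAP and -0.38 in input.

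**Figure D3:**
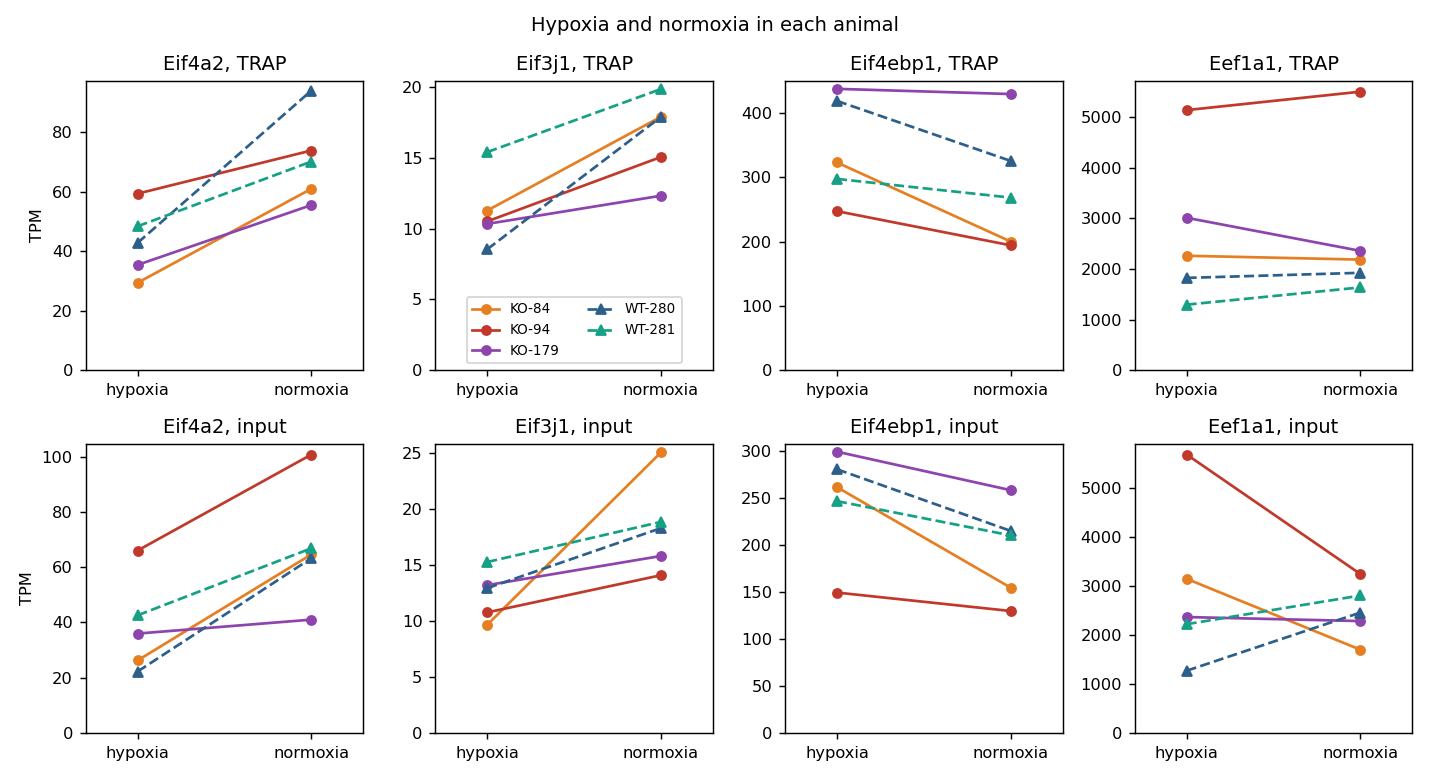
TPM of Eif4a2, Eif3j1, Eif4ebp1 and Eef1a1 in hypoxia and normoxia; each line joins the libraries of 1 animal, in TRAP (top) and input (bottom), with solid lines for knockout-labelled and dashed lines for control animals. All lines are lower at hypoxia for Eif4a2 and Eif3j1 and higher at hypoxia for Eif4ebp1, while those of Eef1a1 in input differ in direction between animals.

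The comparison of knockout-labelled with control animals asks whether the HuR genotype went with the levels of these mRNAs. The members as a whole had median differences above 0, which were smaller without KO-94. The median log2 differences were 0.20 and 0.22 in normoxia and hypoxia TRAP, against 0.05 and 0.06 over all genes, and 0.14 and 0.30 in normoxia and hypoxia input, against 0.11 and 0.36. Without KO-94 the medians were -0.01 and 0.10 in TRAP and 0.06 and 0.09 in input. In limma 0 members passed in any of these comparisons, as did 0 of all genes, while 704 and 585 genes in normoxia and hypoxia TRAP (5.21% and 4.33%) and 304 and 901 genes in normoxia and hypoxia input (2.19% and 6.48%) had an unadjusted p under 0.05. Members at that level numbered 1 and 2 in TRAP and 0 and 4 in input.

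KO-94 was the highest of the 5 animals in all 4 combinations of fraction and oxygen for 19 of the 62 members, or 30.6%, beside 16.4% of all genes. Among them were Eef1a1, Eef1g, Eef2, Eif4a1, Eif3b, Eif3d, Eif3h and Eif2s3x. It was the lowest in all 4 for Eif4ebp1 and Eif2s2, beside 2.88% of all genes. Its median member stood 0.51 and 0.61 above the mean of the other 4 animals in normoxia and hypoxia TRAP and 0.59 and 0.63 in input, against 0.39 and 0.30 and 0.56 and 0.70 over all genes. Eif2s3x in input had 18.0 TPM in both oxygen levels of KO-94, against 3.09 to 4.37 TPM in the other 8 libraries. WT-280 was the lowest in all 4 combinations for Eef1g, Eef2 and Eif3f, beside 1.19% of all genes.

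**Figure D4:**
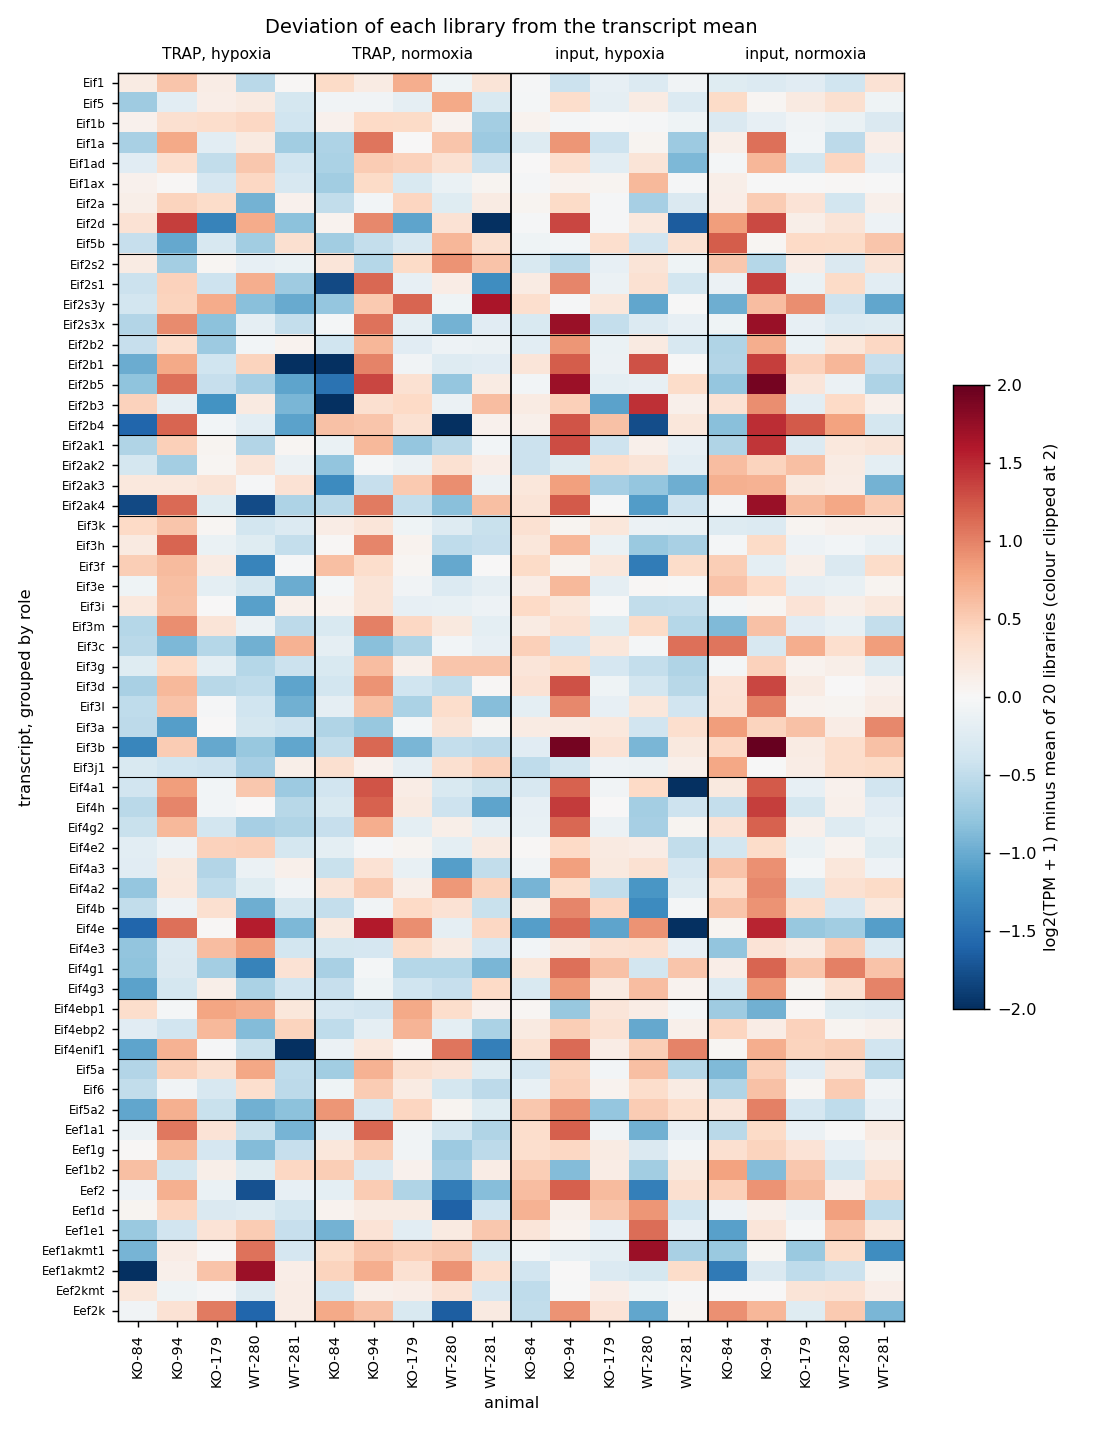
Deviation of each library from the mean of its transcript over 20 libraries, in log2(TPM + 1), with red above and blue below that mean and colour clipped at 2; rows are grouped by role and columns are animals within each fraction and oxygen level. The KO-94 columns are mostly red in each of the 4 blocks, with blue at Eif2s2 and Eef1b2 in all 4.

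The TOP mRNAs among the members were described as a group of their own. The list holds 9 members known as TOP mRNAs in mammalian cells and put together with earlier results of these data known, namely Eef1a1, Eef1b2, Eef1d, Eef1g, Eef2, Eif3e, Eif3f, Eif3h and Eif4b. All 9 were higher in the knockout-labelled animals in normoxia TRAP, hypoxia TRAP and hypoxia input, beside 52.6%, 53.2% and 69.7% of all genes. In normoxia input 7 of 9 were higher, beside 57.2% of all genes. Their median log2 differences were 0.84 and 0.77 in normoxia and hypoxia TRAP and 0.21 and 0.73 in normoxia and hypoxia input. These comparisons share the same 5 animals, and the counts depend on which members were listed. Of all 13 eIF3 transcripts, listed or not, 9 were higher and 4 lower in normoxia TRAP, and 10 were higher and 3 lower in hypoxia TRAP. In normoxia TRAP 7 of the 9 listed members had every knockout-labelled library above both controls, and in hypoxia TRAP 6 of the 9, beside 9.85% and 9.36% of all genes. In input these counts were 3 in normoxia and 5 in hypoxia, beside 9.42% and 18.4%. Without KO-94 the medians in TRAP were 0.55 in normoxia and 0.52 in hypoxia, and without WT-280 they were 0.51 and 0.44. In normoxia input the median was 0.15 without the KO-84 library, and in hypoxia input 0.49 without the WT-280 library. Over all genes, with every library kept, the medians in input were 0.11 and 0.36.

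Eef1a1 had 2183, 5496 and 2355 TPM in normoxia TRAP of KO-84, KO-94, then KO-179, against 1922 and 1634 TPM in that of WT-280 and WT-281. In hypoxia TRAP it had 2259, 5133 and 3008 TPM in the knockout-labelled animals, against 1822 and 1294 TPM in the controls. The groups did not overlap in either, and KO-94 was the highest. The log2 differences were 0.78 ± 0.50 and 1.09 ± 0.50 (limma adjusted p = 0.932 and 1), and 0.36 and 0.76 without KO-94.

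Eef2 was described above in normoxia TRAP, where its knockout-labelled libraries all exceeded the controls. In hypoxia TRAP it had 180.5, 317 and 177 TPM in the knockout-labelled animals, against 57.5 and 174 TPM in the controls. In hypoxia input it had 298, 448 and 301 TPM in the knockout-labelled animals, against 74.4 and 243 TPM in the controls. No groups overlapped, and WT-280 was far below WT-281 in both hypoxia fractions. The log2 differences were 1.01 ± 0.56 in normoxia TRAP, 1.10 ± 0.56 in hypoxia TRAP and 1.34 ± 0.49 in hypoxia input (limma adjusted p = 0.921, 1 and 0.736). Without KO-94 they were 0.71, 0.83 and 1.15. Without WT-280 the difference was 0.31 in hypoxia TRAP and 0.49 in hypoxia input, and without WT-281 it was 1.89 and 2.19.

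Eef1g had 295, 358 and 239 TPM in normoxia TRAP of the knockout-labelled animals, against 152 and 175 TPM in the controls. In hypoxia TRAP it had 256, 397 and 199.98 TPM in the knockout-labelled animals, against 138 and 182 TPM in the controls. Its groups did not overlap in any of the 4 combinations. The log2 differences in TRAP were 0.84 ± 0.44 in normoxia and 0.78 ± 0.44 in hypoxia, where it was 0.51 without KO-94. Eif3f, which begins with a pyrimidine run in the sequence above, had 216, 238 and 172 TPM in hypoxia TRAP of the knockout-labelled animals, against 60.9 and 152 TPM in the controls, a difference of 1.10 ± 0.51. Its groups did not overlap, but the difference was 0.44 without WT-280 and 1.75 without WT-281. Eef1d, the exchange factor subunit of eEF1B, had 112, 120.2 and 119.7 TPM in normoxia TRAP of the knockout-labelled animals, against 34.0 and 82.1 TPM in the controls, a difference of 1.13 ± 0.49. Here too the groups did not overlap, WT-280 was the lowest, and the difference was 0.51 without WT-280 and 1.76 without WT-281.

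In hypoxia input, Eif4b, a cofactor of eIF4A, had 52.4, 95.3 and 64.9 TPM in the knockout-labelled animals, against 19.6 and 46.6 TPM in the controls. Eif3h had 259.9, 353 and 201 TPM in the knockout-labelled animals, against 133 and 141 TPM in the controls. Neither overlapped between groups, and the log2 differences were 1.15 ± 0.49 and 0.95 ± 0.39. Without the hypoxia input library of WT-280 these were 0.55 and 0.90, and the difference of Eif4b was 1.76 without WT-281. Limma adjusted p-values of the differences named for Eef1g, Eif3f, Eef1d, Eif4b and Eif3h ranged from 0.736 to 1. Within the list, the groups overlapped in TRAP at both oxygen levels for Eef1b2 and Eif4b.

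**Figure D5:**
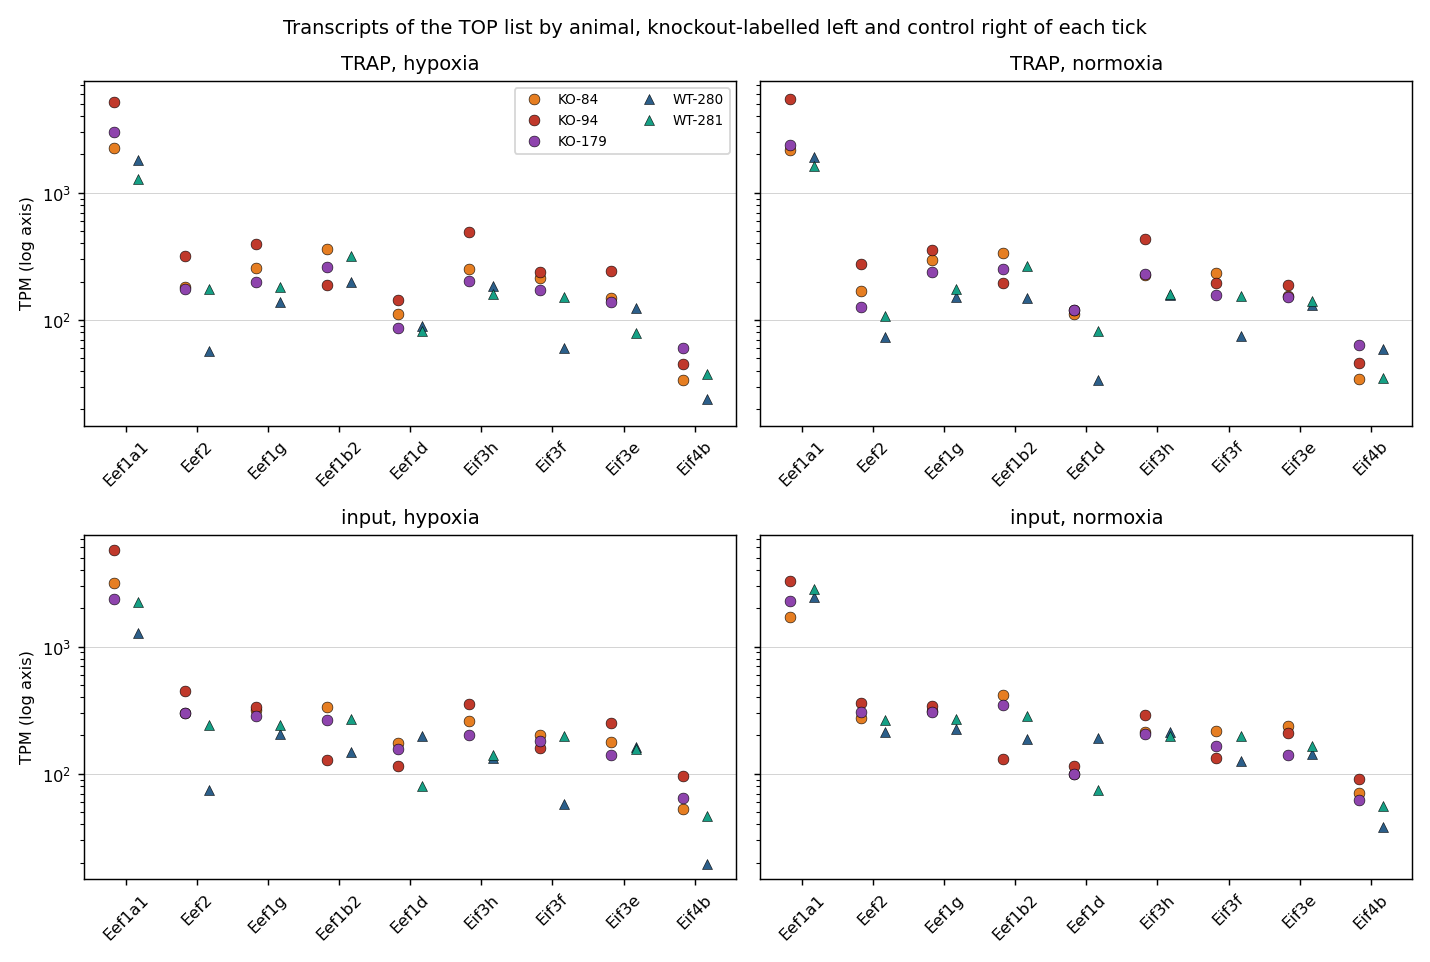
TPM on a log axis of the 9 TOP mRNAs in each library, with knockout-labelled animals (circles) left and controls (triangles) right of each tick, for TRAP (top) and input (bottom) in hypoxia and normoxia. In TRAP, Eef1a1, Eef2, Eef1g, Eif3h, Eif3f and Eif3e have all 3 circles above both triangles at both oxygen levels.

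The balance of Eef to Eif symbols was also compared. It is not a balance of elongation to initiation alone, because both sets hold regulators and the Eif set holds Eif5a. The ratio of summed Eef to summed Eif TPM was 0.482 to 0.850 in normoxia TRAP and 0.636 to 0.812 in hypoxia TRAP of the knockout-labelled animals, against 0.435 to 0.461 and 0.437 to 0.472 in the controls. In input it was 0.548 to 0.628 in normoxia and 0.637 to 0.929 in hypoxia in the knockout-labelled animals, against 0.604 to 0.687 and 0.375 to 0.667 in the controls. The ratios did not overlap in TRAP and did in input. With Eef1a1 left out of the Eef sum, the ratio was 0.137 to 0.210 in normoxia TRAP and 0.152 to 0.197 in hypoxia TRAP of the knockout-labelled animals, against 0.110 to 0.153 and 0.136 to 0.195 in the controls, and the groups overlapped. The median log2 difference between genotypes was 0.57 for Eef and 0.18 for Eif symbols in normoxia TRAP and 0.24 and 0.22 in hypoxia TRAP. In input it was -0.08 for Eef and 0.16 for Eif symbols in normoxia and 0.19 and 0.33 in hypoxia. Markers of fibroblasts had lower summed TPM in the knockout-labelled animals, with overlap of the groups in hypoxia TRAP only. In limma 0 of these markers passed for genotype at either oxygen level in TRAP or input. All 11 were detected, and the summed TPM of the list was 23.6 to 85.6 in normoxia TRAP and 9.18 to 122 in hypoxia TRAP of the knockout-labelled animals, against 109 to 188 and 104 to 245 in the controls. In input it was 174 to 346 in normoxia and 121 to 434 in hypoxia in the knockout-labelled animals, against 526 to 801 and 486 to 545 in the controls. Their part in the TOP mRNA differences was not tested.

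Over all members, every knockout-labelled library was above both controls for 14 members in normoxia TRAP and 12 in hypoxia TRAP (9.85% and 9.36% of all genes). It was below both for 5 and 0 (9.67% and 6.94% of all genes). In input the counts above were 10 in normoxia and 14 in hypoxia (9.42% and 18.4% of all genes), and below 1 and 1 (5.75% and 4.48%). The members named next are those of largest difference among the ones whose groups did not overlap, and members with overlapping groups could differ by more. In normoxia TRAP the largest was that of the eIF2B subunit Eif2b4, with 14.2, 13.9 and 11.4 TPM in the knockout-labelled animals, against 0.805 and 9.73 TPM in the controls (1.68 ± 0.92). It was 0.40 without WT-280 and 2.97 without WT-281. Eif4h, a cofactor of eIF4A, had 94.6, 266 and 133 TPM in the knockout-labelled animals, against 88.0 and 56.3 TPM in the controls (1.08 ± 0.58), with KO-94 far above the others and a difference of 0.67 without it. Eif5b, the factor for subunit joining, was the lowest of these, with 11.4, 13.4 and 15 TPM in the knockout-labelled animals, against 30.9 and 24.2 TPM in the controls (-0.999 ± 0.589). Eif2s2 had 195, 111 and 215 TPM in the knockout-labelled animals, against 306 and 244 TPM in the controls (-0.71 ± 0.46, and -0.41 without KO-94), and Eif3a 38.6, 34.6 and 57.8 TPM, against 71.2 and 60.6 TPM in the controls (-0.61 ± 0.51). None of these groups overlapped.

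In hypoxia TRAP the largest among non-overlapping members was that of Eif2s3y, with 15.5, 28.3 and 34.7 TPM in the knockout-labelled animals, against 11 and 9.68 TPM in the controls (1.19 ± 0.71). Its groups did not overlap, unlike those in normoxia TRAP, where WT-281 was the highest. In normoxia input it was that of Eif2ak3, with 10.2, 10.1 and 6.84 TPM in the knockout-labelled animals, against 6.63 and 2.58 TPM in the controls (0.92 ± 0.65). It was 0.38 without WT-281 and 1.47 without WT-280. Next among non-overlapping members were Eif2s3x (0.76 ± 0.81, and 0.14 without KO-94) and Eif4g2, an eIF4G relative that cannot bind eIF4E (0.72 ± 0.52, and 0.40 without KO-94). All 3 had every knockout-labelled library above both controls. Eif4g2 had 125, 232 and 109.6 TPM in the knockout-labelled animals, against 85.3 and 92.2 TPM in the controls. In hypoxia input Eif2ak4, which encodes the amino acid sensor GCN2, had 3.85, 8.53 and 3.05 TPM in the knockout-labelled animals, against 0.873 and 2.06 TPM in the controls (1.26 ± 0.70, and 0.90 without the hypoxia input library of WT-280). Below both controls were Eif2s2 in hypoxia input (-0.42 ± 0.43, and -0.25 without the hypoxia input library of WT-280) and Eif3k in normoxia input (-0.27 ± 0.36). None passed in limma, with adjusted p-values of 0.736 to 1.

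Whether hypoxia acted differently in the genotypes was tested as the difference of their hypoxia changes. In limma 0 members and 0 genes passed in either fraction (261 genes in input and 284 in TRAP, or 1.88% and 2.1%, had an unadjusted p under 0.05, with 0 members among them). The members' medians were 0.11 in TRAP and 0.09 in input, against 0.02 and 0.25 over all genes. Libraries of the genotypes did not overlap in this change for 10 members above and 4 below in input (17% and 5.65% of all genes), and for 8 above and 8 below in TRAP (10.6% and 10.1%). Of these non-overlapping members, the input differences of largest size were 1.23 ± 0.68 for Eef1a1, 1.13 ± 0.99 for Eif2ak4 and 0.95 ± 0.69 for Eef2. Without the hypoxia input library of WT-280 they were 0.82, 0.77 and 0.11, and Eef2 was at 1.65 without WT-281. Eif2ak4 was at 0.72 without the normoxia input library of KO-84 and at 0.64 without WT-280. On the other side were Eif2b3, a catalytic-complex subunit of eIF2B (-1.01 ± 0.92), Eif5a2, the rarer eIF5A gene (-0.84 ± 0.97), and Eif2ak2, the double-stranded RNA sensor PKR (-0.69 ± 0.78). Without the hypoxia input library of WT-280 they were -0.33, -0.77 and -0.45, and Eif2b3 was at -1.54 without WT-281. In TRAP the largest were 1.66 ± 1.01 for Eif2s3y, 1.61 ± 1.35 for Eif4enif1 and 0.90 ± 0.64 for the eIF3 subunit Eif3g, with -1.10 ± 1.43 for Eif2d, a factor for non-canonical initiation and recycling, -0.98 ± 0.80 for the eEF1A methyltransferase Eef1akmt1 and -0.88 ± 0.69 for Eif4a3 on the other side. Without WT-281 the value of Eif2s3y was 0.73 and that of Eif2d -0.33, and without WT-280 they were 2.60 and -1.86. Limma adjusted p was 1.000 for each in these fits, which did not pair the libraries of an animal. With the animal as a block it was 0.733 to 0.837.

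In input, Eef1a1, Eif3k and Eif4h were higher in hypoxia in every knockout-labelled animal and lower in every control, a count of 3 beside 3.88% of all genes. In TRAP, Eif4h and the eIF2B subunit Eif2b2 had the opposite pattern, a count of 2 beside 2.13% of all genes. These members were picked out after their values were seen.

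Other genes of translation, from lists outside the symbol rule, gave 0 passing genes in any comparison in limma without the lysate block. With it, 1 passed lower in normoxia TRAP than in input, Abce1, which encodes a ribosome recycling factor, with a limma adjusted p of 0.0377. Of 11 genes for termination, ribosome recycling and poly(A) binding, 10 were lower in normoxia TRAP than in input, with a median of -0.79, whereas in hypoxia 6 were lower, with a median of -0.07. Of 17 further entries for initiation, elongation and related proteins, such as those for hypusine synthesis, 13 were lower in normoxia TRAP (median -0.30). The gene Dohh has more than 1 of these entries. Of 18 genes for regulators of the factors, such as parts of the mTOR and eIF2 phosphatase pathways, 15 were lower in normoxia TRAP (median -0.33). Over all genes, 29.1% were higher in normoxia TRAP (median -0.28) and 41.2% in hypoxia TRAP (median -0.10). In hypoxia input 17 of the 18 regulator genes were higher in the knockout-labelled animals (median 0.68, against 0.36 over all genes, of which 69.7% were higher). The other genotype comparisons were less uniform. In normoxia input 11 of 18 were higher (median 0.08), in normoxia TRAP 10 of 17 (0.05) and in hypoxia TRAP 10 of 17 (0.39). This list was not refitted without the hypoxia input library of WT-280.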

How the data were processed

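Total RNA and TRAP RNA of the same lysates were measured in poly(A)-enriched libraries. The values are TPM in the deposited tables, 1 for input and 1 for TRAP. The submitters' processing notes name HISAT, DESeq2 and GRCm38, and the calculation of TPM is not stated there. Each table holds 10 further columns, 20 in all, that were not used. TPM were analysed as log2(TPM + 1) in limma 3.58.1 (R 4.3.3) with a mean-variance trend and 1 mean per group, keeping genes that reached 1 TPM in 2 or more libraries. Input and TRAP were fitted separately for hypoxia and genotype, and together for TRAP against input, with p-values adjusted by Benjamini-Hochberg over all genes tested (threshold 0.05). TRAP and input tables were each scaled within a library, so their difference is relative within each library. Python 3.11.15, numpy 2.4.6, pandas 2.3.3 and matplotlib 3.10.9 were used for the remaining steps. The fits without a block were also run on simulated data. Those libraries were drawn independently, so the pairing by lysate or animal was not covered.

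The members and lists were chosen with earlier results of these data known. Named members are those of highest mean TPM, some regulators, those that passed and, where fewer than 3 passed in a direction, up to 3 of largest difference whose groups did not overlap. The TOP list and the members that had one sign in every animal were described outside this rule, after their values were seen. Promoter starts came from RefSeq (GRCm38.p6).

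Animals are the replicates, and each gave a library per fraction and oxygen level. The animal numbers pair the libraries: deviations from group means correlated at 0.233 to 0.755 between oxygen levels of an animal and at 0.150 to 0.645 between fractions of a lysate. Of the library pairs, 0 were identical. Alternatives were the pseudocount (0.1 and 5), no filter on low values, quantile normalization, no trend, only the libraries compared, a block for lysate or animal, and leaving out each animal.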

Additional observations from a re-analysis of the deposited data

Results flagged for a closer look

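The hypoxia change of Eef1a1 in input went in opposite directions in the genotypes. It was 0.89, 0.81 and 0.05 on the log2 scale in KO-84, KO-94, then KO-179, and -0.95 and -0.34 in WT-280 and WT-281, a difference of 1.23 ± 0.68 between genotypes. The difference did not pass in limma (unadjusted p = 0.0957, adjusted p = 1.000). The SE and p-values of this section come from fits that did not pair the libraries of an animal. With the animal as a block, the limma adjusted p of Eef1a1 in input was 0.733. In TRAP the difference was 0.31. In input it was 0.82 without the hypoxia input library of WT-280.

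Eif3k in input had the same pattern, with hypoxia changes of 0.56, 0.33 and 0.18 in the knockout-labelled animals and -0.23 and -0.24 in the controls. The difference of 0.59 ± 0.50 did not pass in limma either (unadjusted p = 0.261, adjusted p = 1.000). Every knockout-labelled animal above 0 and every control below 0 was found for 3 of the 62 members, beside 3.88% of all genes. The others were Eif4h, described next, and Eef1a1.

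Eif4h, a cofactor of eIF4A, had opposite patterns in the fractions. In TRAP its hypoxia changes were -0.23, -0.20 and -0.23 in the knockout-labelled animals and 0.42 and 0.49 in the controls, a difference of -0.67 ± 0.82. In input they were 0.31, 0.02 and 0.35 in the knockout-labelled animals and -0.78 and -0.19 in the controls, a difference of 0.71 ± 0.87, which was 0.38 without the normoxia input library of KO-84 and 0.42 without WT-280. Neither passed in limma (unadjusted p = 0.425 in both, adjusted p = 1.000 in both). With the animal as a block, the limma adjusted p was 0.829 in TRAP and 0.765 in input.

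Eif2b2, an eIF2B subunit, had TRAP hypoxia changes of -0.06, -0.33 and -0.50 in the knockout-labelled animals and 0.05 and 0.19 in the controls, a difference of -0.42 ± 0.81 that did not pass in limma (unadjusted p = 0.618, adjusted p = 1.000). The pattern of Eif4h and Eif2b2 in TRAP was found for 2.13% of all genes.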

How the results depend on the processing

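Among the alternative values for 63 named results, 801 kept their direction and side of the threshold, and 3 newly passed: Eef2, Eif4g1 and Eif3c in normoxia TRAP against input with the replicate block (lysate), where members called numbered 3 instead of 0. The block changed no other member's call. No paired analysis was possible for knockout-labelled against control animals because no animal is in both groups. Genes called in normoxia TRAP against input (34) were 7 with quantile normalization, 251 with the replicate block and 0 to 24 when 1 animal was left out. With the block and 1 animal left out they were 30 to 128, and without the KO-84 normoxia input library 7. In hypoxia (13) they were 1 with a pseudocount of 0.1, 21 with no filter, 5 with quantile normalization, 1 with only the libraries compared, 53 with the replicate block, 0 to 8 with 1 animal left out and 8 without the WT-280 hypoxia input library. The hypoxia change of TRAP against input gave 14 genes with no filter, instead of 0. Where genotype or hypoxia comparisons had 0 genes called, leaving out 1 animal gave 0 to 1 for hypoxia in input, 0 to 2 for genotype in normoxia input, 0 to 1 in normoxia TRAP and 0 to 2 in hypoxia TRAP. No filter gave 1 in each input comparison of genotypes, 2 in normoxia TRAP and 10 in hypoxia TRAP. A pseudocount of 5 gave 1 in each TRAP comparison, only the libraries compared gave 1 in hypoxia input, and a pseudocount of 0.1 gave 1 for the genotype difference of the hypoxia change in TRAP. The Eef minus Eif median with 1 animal left out was -0.28 to 0.11 for the hypoxia change of TRAP against input and -0.37 to 0.31 for genotype in hypoxia input, where it was 0.31 without KO-94 and 0.30 without WT-281. The TOP list median for genotype was 0.51 to 0.98 in normoxia TRAP and 0.44 to 1.00 in hypoxia TRAP with 1 animal left out. The alternatives that leave out a single library, the block with an animal left out, the block for marker and other gene lists and those for the TOP list were chosen after seeing the data. The cause of these shifts was not tested.
With 2 control animals, p-values rest on few animals, and TPM hold no depth.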
